A study of Mus musculus with 24 samples.

Results

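The 6 control tumours of a mouse study of pancreatic ductal adenocarcinoma (PDAC) were described here on their own, as the baseline against which the study set its treatments. They were chosen by their sample titles, which name them control 1 to 6, and they were 6 of the 24 tumours in the series. The labels describe each as vector treated, without saying what the vector was, and the other 18 tumours, which received BMS754807, hydroxychloroquine or both, entered no value below. The labels used here name neither the strain, age or sex of the mice, nor the origin of the tumour cells, the site of growth, the doses and times of treatment, or whether the 6 tumours grew in separate animals. Total RNA of each tumour was hybridised to 1 Clariom S array, and 19505 genes were measured. Every value is a log2 signal, and an error is the SD between the 6 tumours (n = 6) unless stated otherwise. With 1 group and 1 array per tumour no comparison between groups was tested, and differences between tumours cannot be told apart from differences between arrays or between pieces of tissue. In whole tumour tissue, fewer cells of a type and less RNA per cell cannot be told apart either.

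PDAC arises from the exocrine pancreas and forms glands of duct-like epithelial cells that carry keratins, cadherin junctions and mucins. These glands sit in a dense stroma of fibroblasts, collagen, blood vessels and immune cells, above all macrophages, which often outnumbers the cancer cells. RNA from a whole tumour therefore mixes the cancer epithelium with this stroma and with whatever normal tissue is cut out with it, such as fat, muscle, lymph node or pancreas.

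The arrays were alike in scale, with medians between 6.81 and 7.01 log2. Pearson correlations across genes, which are not independent replicates, lay between 0.9894 and 0.9937 for the 10 pairs of tumours without tumour 5 and between 0.9829 and 0.9853 for its 5 pairs, so tumour 5 stood apart from the rest. In a principal component analysis of the gene-centred values, the leading component (37.2% of the variance) placed tumour 5 at 70.8 and the others between -25.8 and -5.99. The next (20.2%) placed tumour 6 at 48.0, with the others between -25.8 and 7.34. Counts of variable genes are given with and without tumour 5 below. So are the SDs of the skeletal muscle, fibroblast, endothelial, macrophage and neutrophil scores. Other list scores and single genes that rest on it are given for all 6 tumours only.

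The brightest genes were mainly those of protein synthesis, the cytoskeleton and glycolysis. The elongation factor gene Eef1a1 was brightest at 18.77 ± 0.025 log2, followed by Clu at 18.75 ± 0.027, which encodes the secreted chaperone clusterin, Actb (cytoplasmic actin) at 18.17 ± 0.068 and Bsg (basigin, a surface partner of lactate transporters) at 18.01 ± 0.077. Signal depends on the sequence of the probes as well as on the amount of transcript, so the order is one of array signal and not of molecules. Ribosomal protein genes made up 25 of the 100 brightest genes and 47 of the 500 brightest, out of 60 measured. Their median mean signal was 16.2 log2. The glycolysis list had 12 of 12 measured genes above background (the threshold is defined below), where 64.6% of all genes were. It had 4 genes in the top 100, among them Gapdh at 17.17 ± 0.13. The cytoskeleton list had 8 genes in the top 100, and the epithelial and ductal list 1, the keratin gene Krt7.

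Beside these genes of every cell, the 30 brightest held Dmbt1, a secreted scavenger receptor of mucosal and ductal epithelium, and the galectin gene Lgals2. Dmbt1 gave 17.64, 17.71, 17.91, 17.37, 17.56 and 17.89 log2 in tumours 1 to 6, and Lgals2 lay between 17.34 and 17.52. Clu ranged only from 18.72 to 18.80, the third smallest SD of all genes. Whether signals this close to the top of the scale, where the highest value was 18.94, were still in the range in which the array responds was not tested. High signals differed little between tumours in general: the median SD of the 100 brightest genes was 0.13 log2 and the largest 0.46, that of the matrix gene Sparc. The last of the 100 had a mean of 16.57 and the next gene one of 16.55, so this limit marks no step in signal.

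**Figure D1:**
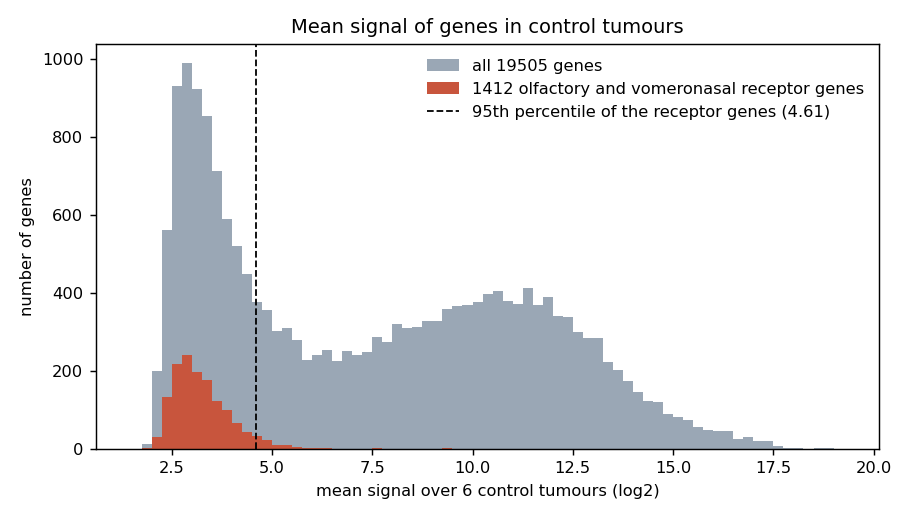
Histogram of the mean log2 signal of each gene over the 6 control tumours (x axis) with the number of genes on the y axis, for all 19505 genes in grey and the 1412 olfactory and vomeronasal receptor genes in red. The receptor genes pile up around 3.10 log2, and the dashed line at 4.61 is their 95th percentile, used as background threshold.

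The labelled tissue was checked against markers, and several of those of duct epithelium were bright in every tumour. Krt7, Krt8, Krt18 and Krt19, the keratins of simple and ductal epithelium, had means of 16.82 ± 0.15, 16.31 ± 0.14, 16.21 ± 0.14 and 15.43 ± 0.21 log2. The junction gene Cdh1 (E-cadherin) stood at 16.29 ± 0.12 and the ductal transcription factor gene Sox9 at 14.96 ± 0.20. Of the epithelial and ductal list 18 of 20 genes lay above background. Mesenchymal genes were bright as well, with Vim (vimentin) at 17.21 ± 0.11 and Fn1 (fibronectin) at 17.06 ± 0.14, and these are made by stroma and by cancer cells that have lost epithelial traits.

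Among genes of PDAC and of pancreatic and foregut identity, 15 of 18 measured list members lay above background, where 64.6% of all genes did. Smad4, the tumour suppressor often lost in human PDAC, gave 14.50 ± 0.16 log2, and Myc 13.43 ± 0.38. Klf5, a factor of gut and ductal epithelium, stood at 15.14 ± 0.25, Hnf4a and Gata6, which mark gut-type epithelial identity, at 13.22 ± 0.17 and 11.15 ± 0.23, and Pdx1, which sets up the pancreas in the embryo, at 10.75 ± 0.26. Of these 6 genes Myc had the largest SD. Genes of stomach and intestine were split. Above background were 15 of 20 mucin and gastric-type genes and 9 of 16 intestinal genes. The gastric protease gene Ctse stood at 15.25 ± 0.17 and the intestinal factor gene Cdx2 at 10.85 ± 0.32, but Cdx1 at 3.30 ± 0.37, the intestinal fatty acid carrier gene Fabp2 at 2.91 ± 0.33 and the gastrokine gene Gkn1 at 3.49 ± 0.52.

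Cdkn2a, the tumour suppressor gene of the Ink4a/Arf locus, was the most variable of the PDAC genes. It gave 6.67, 6.76, 4.97, 7.40, 8.07 and 7.64 log2 in tumours 1 to 6. All 6 values lay above background, tumour 3 was lowest and tumour 5 highest. Mtap, its neighbour, which was picked after its values were seen because it is often deleted together with Cdkn2a, was steady at 16.77 ± 0.13.

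Normal pancreas was close to background. Of the acinar list, which holds digestive enzyme genes, 19 of 24 measured genes lay at or below the threshold, and of the islet list 13 of 16, where 35.4% of all genes did. Ptf1a, the acinar master factor, had 2.06, 2.15, 2.28, 2.48, 1.94 and 2.76 log2 in tumours 1 to 6 and the insulin gene Ins2 3.30, 3.36, 3.24, 4.04, 3.05 and 2.90, all below 4.61. The acinar and islet genes above background included the elastase gene Cela1 at 7.38 ± 0.40, whose transcript is not confined to pancreas, and Isl1 at 8.24 ± 0.82, a factor of islets, neurons and some mesenchyme.

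Y-linked genes were read in all 6 tumours. Eif2s3y lay between 13.03 and 13.50 log2, Uty between 12.81 and 13.46, and Kdm5d between 10.90 and 11.27, each lowest in tumour 5. The array cannot tell whether these transcripts came from the cancer cells, the host or both.

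Stroma made up the other large share of bright markers. All 19 fibroblast and matrix genes, all 15 myofibroblast genes and all 17 macrophage genes lay above background, as did 16 of 17 endothelial genes and 64.6% of all genes. Col1a1 and Col3a1, fibrillar collagens, had means of 15.60 ± 0.79 and 15.95 ± 0.64 log2, Acta2, the smooth muscle actin of myofibroblasts, 14.23 ± 0.60, and Sparc, a secreted collagen-binding protein, 16.97 ± 0.46. The pan-leukocyte gene Ptprc stood at 9.93 ± 0.63, the macrophage mannose receptor gene Mrc1 at 13.58 ± 0.51 and the complement gene C1qa at 11.54 ± 0.85.

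Lymphocyte and dendritic cell markers were dim. Above background were 7 of 14 T cell genes, 3 of 13 NK and cytotoxic genes, 5 of 13 B and plasma genes and 6 of 13 dendritic cell genes, where 64.6% of all genes were. The bright members of the B and plasma list were Sdc1 and Xbp1, at 15.36 ± 0.20 and 14.78 ± 0.14, which epithelial cells express as well, while the B cell receptor component Cd79a stood at 3.42 ± 0.65 and Ms4a1 (CD20) at 3.41 ± 1.18. Of the skin and keratinocyte list 6 of 19 genes and of the hepatocyte list 8 of 18 lay above background. Of the mast cell list it was 7 of 9, led by the mast cell protease gene Cpa3 at 10.50 ± 0.47.

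**Figure D2:**
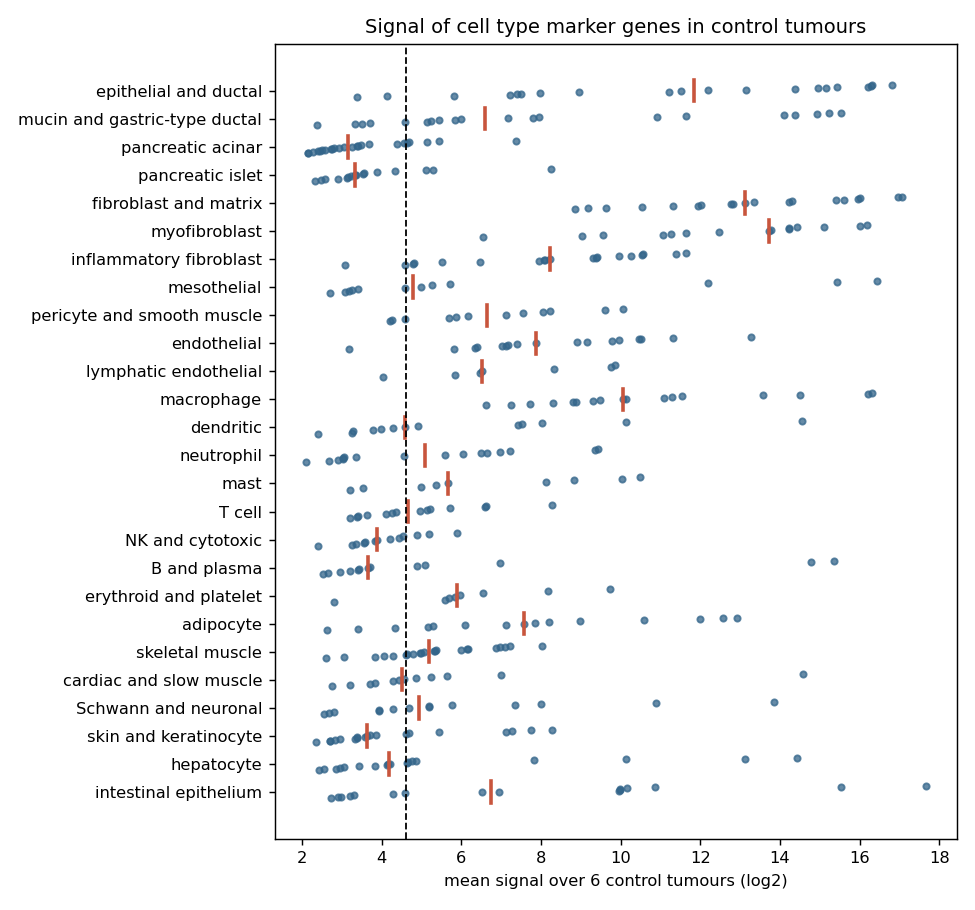
Mean log2 signal over the 6 control tumours (x axis) of each measured gene in 26 lists of cell type markers (rows), with a red bar at the median of a list and a dashed line at the background threshold of 4.61. The medians of the epithelial, fibroblast, myofibroblast and macrophage lists lie farthest to the right, and acinar, islet, B cell and keratinocyte markers cluster at the left.

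The background threshold came from genes of the nose. The 1412 olfactory and vomeronasal receptor genes, not transcribed in pancreas as far as known, had a median mean signal of 3.10 log2, and their 95th percentile was 4.61. At or below it lay 6908 of 19505 genes (35.4%), 11724 genes were above it in all 6 tumours, 5746 in none, and 2035 in 1 to 5 tumours. A gene below the threshold may still be transcribed, since a rare cell type adds little RNA to a whole tumour. The threshold itself was passed by 70 receptor genes, with Vmn2r29 highest at 9.32 ± 0.16.

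Families with narrow tissue use were mostly dark. At or below the threshold were 34 of 35 bitter taste receptor genes, 31 of 39 beta defensin genes, 39 of 50 keratin-associated protein genes of hair, 68 of 99 cytochrome P450 genes and 34 of 49 keratins. Among claudins, the tight junction proteins, it was 20 of 32, and the brightest was Cldn2 at 12.04 ± 0.12, a claudin of leaky epithelia. By contrast 2 of 39 proteasome genes, which every cell needs, and 38 of 358 Zfp zinc finger genes were at or below it. The dimmest list members were Ngp at 2.09 ± 0.15, a granule protein of immature neutrophils, and the acinar genes Ctrb1 and Prss3 at 2.14 ± 0.18 and 2.15 ± 0.16. Oas1h, of the oligoadenylate synthetase family, and Best2, a chloride channel gene, were among the 5 dimmest genes outside these lists and families, at 1.90 ± 0.23 and 1.93 ± 0.12.

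Genes differed between the 6 tumours by a median SD of 0.31 log2, and 262 genes (1.34%) had an SD of at least 1, a limit set after the values were seen. Spread depended on signal. The median SD was 0.28 below 3 log2, 0.45 between the threshold and 6, 0.24 between 10 and 12, and 0.16 above 14, where 0 genes reached an SD of 1. Of the genes with means between 6 and 8, 4.20% had an SD of at least 1. Ranks by SD therefore favour genes of middling signal. All 262 genes were above background in at least 1 tumour.

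Most of the large spread came from tumour 5. Of the 100 genes with the largest SD, 56 were highest in tumour 5, where 20.1% of all genes were. In tumour 6 it was 25, near the share of all genes, 18.7%. In tumours 1 to 4 it was 8, 0, 3 and 8, where 13.4%, 14.9%, 14.4% and 18.5% of all genes were highest. Without tumour 5 only 129 genes (0.661%) had an SD of at least 1, and 50 of the first 100 were among the new first 100. Of the new first 100, 54 were highest in tumour 6. The share of all genes highest in it without tumour 5 was not computed. The last of the first 100 genes had an SD of 1.25, as did the next gene to 2 decimals. The steadiest of all genes was Gnai2, a G protein subunit, at 15.75 ± 0.024.

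**Figure D3:**
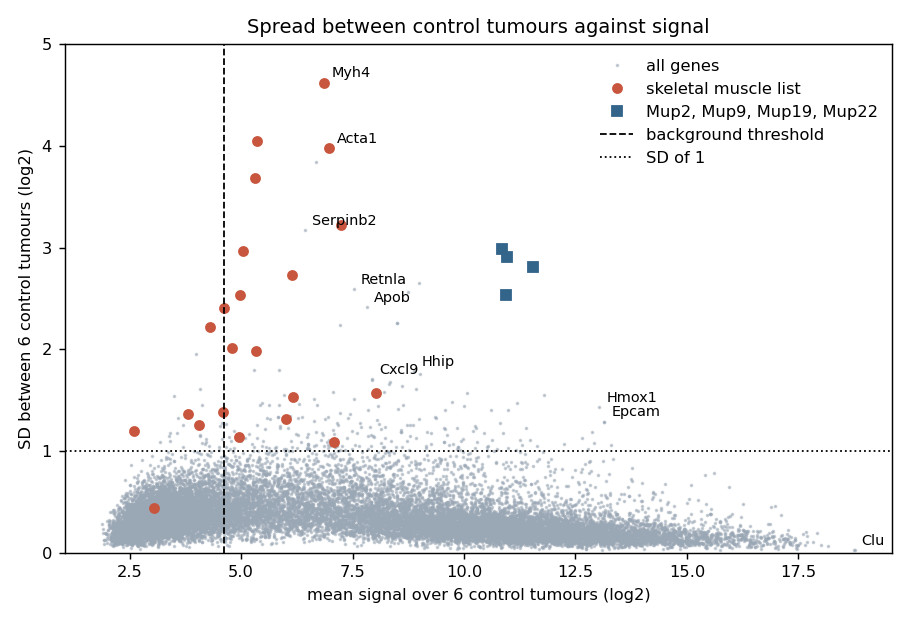
SD between the 6 control tumours (y axis, log2) against mean signal (x axis, log2) for each gene, with skeletal muscle genes in red and 4 major urinary protein genes in blue. Muscle genes rise to an SD of 4.62 at middling signal, while the brightest genes, such as Clu, lie close to 0.

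Of the lists, skeletal muscle held the most genes with a large spread. All 22 of its measured genes were highest in tumour 5, where 20.1% of all genes were, and in 18 of them tumour 1 came next. Of the 22 genes of the contractile apparatus and its calcium and energy supply, 21 had an SD of at least 1, against 1.34% of all genes, and 18 were among the 100 most variable. Myh4, the myosin heavy chain of fast fibres and the most variable gene of all, gave 10.39, 3.57, 3.33, 4.57, 14.67 and 4.68 log2 in tumours 1 to 6. Acta1, the actin of skeletal muscle, gave 9.51, 4.70, 4.33, 4.58, 14.02 and 4.73. Both stood far above background in tumours 5 and 1, and close to it or below it in the other 4 tumours.

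Other fast fibre genes had the same order. Atp2a1, the calcium pump of fast fibres, had 7.39, 3.10, 2.76, 2.92, 12.78 and 3.17 log2 in tumours 1 to 6, and titin (Ttn) had 5.68, 3.08, 3.66, 3.23, 10.80 and 3.83. Myl1 and Tnnt3, a myosin light chain and a troponin of fast muscle, reached 13.13 and 11.95 in tumour 5 and 8.88 and 7.38 in tumour 1. Myh8, the myosin of newborn and regenerating muscle, followed at 13.42 and 9.22. In all of these genes the other 4 tumours lay below tumour 1. It was otherwise for 4 list genes, such as Myh2, another fast myosin, with 3.02, 3.62, 3.47, 4.08, 8.73 and 2.83, and Mb (myoglobin) with 4.42, 4.57, 4.36, 5.30, 7.10 and 4.00. The list score, which averages over the members how far a tumour lay from the mean of the 6 for that gene, was 0.66, -1.19, -1.36, -1.01, 4.10 and -1.20 in tumours 1 to 6. Its SD was 2.14 and 0.84 without tumour 5. Without tumour 5, 8 of the 22 genes still had an SD of at least 1.

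Muscle of the heart and slow fibres did not share this range. The 12 genes of that list had a median SD of 0.35 log2, against 2.00 for the skeletal muscle list. None had an SD of at least 1, which is near the share of all genes, 1.34%. Of the 12 genes 7 were near background, where 35.4% of all genes were. In 1 of them, the myosin light chain gene Myl2, tumour 5 was highest at 5.82 and tumour 1 next at 5.28. Actc1, the cardiac actin, stayed between 5.36 and 5.92 log2. Actg2, the actin of gut smooth muscle, stayed between 8.68 and 9.39. Actb ran from 18.07 to 18.25. Among the actin genes measured, the skeletal one had an SD of 3.98, Acta2 one of 0.60, Actc1 one of 0.24, Actg2 one of 0.23 and Actb one of 0.068.

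The promoters of Myh4 and Acta1 are printed because these genes led the muscle group. RefSeq sequences of build GRCm38.p6 run from 250 bases before to 50 after the start of each gene, 5′ to 3′ on the gene's own strand. Capitals mark CArG boxes, the binding site of serum response factor, and TATA boxes (TATAAA), both searched on both strands, and the marked matches do not overlap.
Myh4 (chr11:67237562-67237861, plus strand): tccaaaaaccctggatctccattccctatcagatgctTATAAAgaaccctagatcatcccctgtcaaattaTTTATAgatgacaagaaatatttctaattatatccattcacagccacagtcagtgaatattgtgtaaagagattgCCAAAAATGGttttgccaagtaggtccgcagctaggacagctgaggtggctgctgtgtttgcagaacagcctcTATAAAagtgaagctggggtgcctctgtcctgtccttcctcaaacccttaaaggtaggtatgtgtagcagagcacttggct
Acta1 (chr8:123894726-123895025, minus strand): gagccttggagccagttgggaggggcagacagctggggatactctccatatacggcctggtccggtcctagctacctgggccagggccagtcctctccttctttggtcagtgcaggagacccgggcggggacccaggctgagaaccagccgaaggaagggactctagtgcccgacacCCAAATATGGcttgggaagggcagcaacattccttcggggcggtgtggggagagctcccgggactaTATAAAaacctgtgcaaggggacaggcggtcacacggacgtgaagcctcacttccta
Each holds 1 CArG box. RefSeq promoters were at hand for 16 of the 22 muscle list genes. Of these 16, only these 2 held a CArG box, where 1.63% of all 32851 promoters did, and 5 held a TATA box, where 13.6% of all did. A list gene counted if any of its promoters matched, while the shares are of single promoters. Genes with several promoters had more chances to match, so count and share are unlike measures. A match of letters is a description and shows no binding.

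Tumour 5 also had the highest scores for stromal, vascular and myeloid genes. Its score was 1.10 for fibroblast and matrix genes, where the other tumours lay between -0.74 and 0.26, 1.30 for endothelial genes against at most 0.22, 1.16 for macrophage genes against at most 0.059, and 0.94 for neutrophil genes against at most -0.082. The neutrophil list had 8 of 16 genes near background, and over the others its score in tumour 5 was 1.63. By gene, 17 of 19 fibroblast, 13 of 17 endothelial, 17 of 17 macrophage and 10 of 16 neutrophil genes were highest in tumour 5, where 20.1% of all genes were. Tumour 2 had the lowest score of the 6 for fibroblast, endothelial, macrophage and pericyte genes. Leaving out tumour 5 gave an SD of 0.41 for the fibroblast score, 0.36 for the endothelial, 0.29 for the macrophage and 0.067 for the neutrophil score. With it these SDs were 0.65, 0.71, 0.62 and 0.47. With all 6 tumours, 1 fibroblast, 6 endothelial, 1 macrophage and 3 neutrophil genes had an SD of at least 1. Without tumour 5 it was 0 genes of each list, which is near the share of all genes, 0.661%.

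Single stromal genes showed the size of this difference. Col1a1 gave 15.20, 14.54, 15.30, 15.89, 16.85 and 15.84 log2 in tumours 1 to 6, and Cdh5, the cadherin of endothelial junctions, 10.46, 10.53, 11.04, 11.56, 13.31 and 10.91. Tagln, an actin-binding protein of smooth muscle and myofibroblasts, reached 13.46 in tumour 5 and lay between 11.08 and 11.45 in the others. Tumour 5 was highest in each of these. The endothelial factor gene Erg gave 5.94, 6.31, 6.62, 7.13, 9.44 and 7.57 in tumours 1 to 6. Cxcl12, the chemokine of fibroblasts that draws lymphocytes and progenitor cells, gave 8.26, 8.44, 8.45, 10.33, 11.57 and 9.18, with tumours 5 and 4 on top.

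Single genes of myeloid cells and of stress were highest there too. Arg1, the arginase of suppressive macrophages, gave 9.73, 8.63, 9.44, 10.03, 13.13 and 9.41 log2 in tumours 1 to 6. Hmox1, the heme oxygenase that breaks down heme, chosen after its values were seen, gave 12.23, 11.74, 13.05, 12.07, 15.65 and 13.43. Serpinb2, a plasminogen activator inhibitor made by activated macrophages and stressed epithelium, gave 4.61, 3.82, 5.51, 5.33, 12.59 and 6.77, and Ccl2, a chemokine for monocytes, 8.08, 6.82, 7.47, 8.13, 10.83 and 7.15. In all 4 genes tumour 5 was highest by more than 2 log2. The neutrophil calprotectin gene S100a8 reached 9.57 in tumour 5 and at most 6.77 in the others. Apob, the protein scaffold of lipoproteins made by liver and gut, stood at 12.43 in tumour 5 and between 6.10 and 8.38 elsewhere.

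Epithelial genes ran the other way in part. The score of the epithelial and ductal list was 0.45, 0.099, 0.27, -0.48, -0.43 and 0.089 in tumours 1 to 6, lowest in tumours 4 and 5. Of its 20 genes 9 were lowest in tumour 4, where 15.1% of all genes were. In tumour 5 it was 6 of 20, which is near the share of all genes, 25.6%, and 2 others, Krt18 and Msln, were highest there. Epcam, an adhesion molecule of epithelium, gave 14.15, 13.42, 14.07, 12.27, 10.95 and 14.03 log2, and Cldn4, a tight junction claudin, 9.29, 8.18, 7.80, 6.29, 5.62 and 7.15. Agr2, a secretory pathway gene of mucous epithelium, gave 13.11, 11.79, 12.55, 10.59, 10.52 and 11.30. In these 3 genes tumour 5 was lowest and tumour 4 next, whereas Krt8 and Krt18 had SDs of 0.14 and 0.14.

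**Figure D4:**
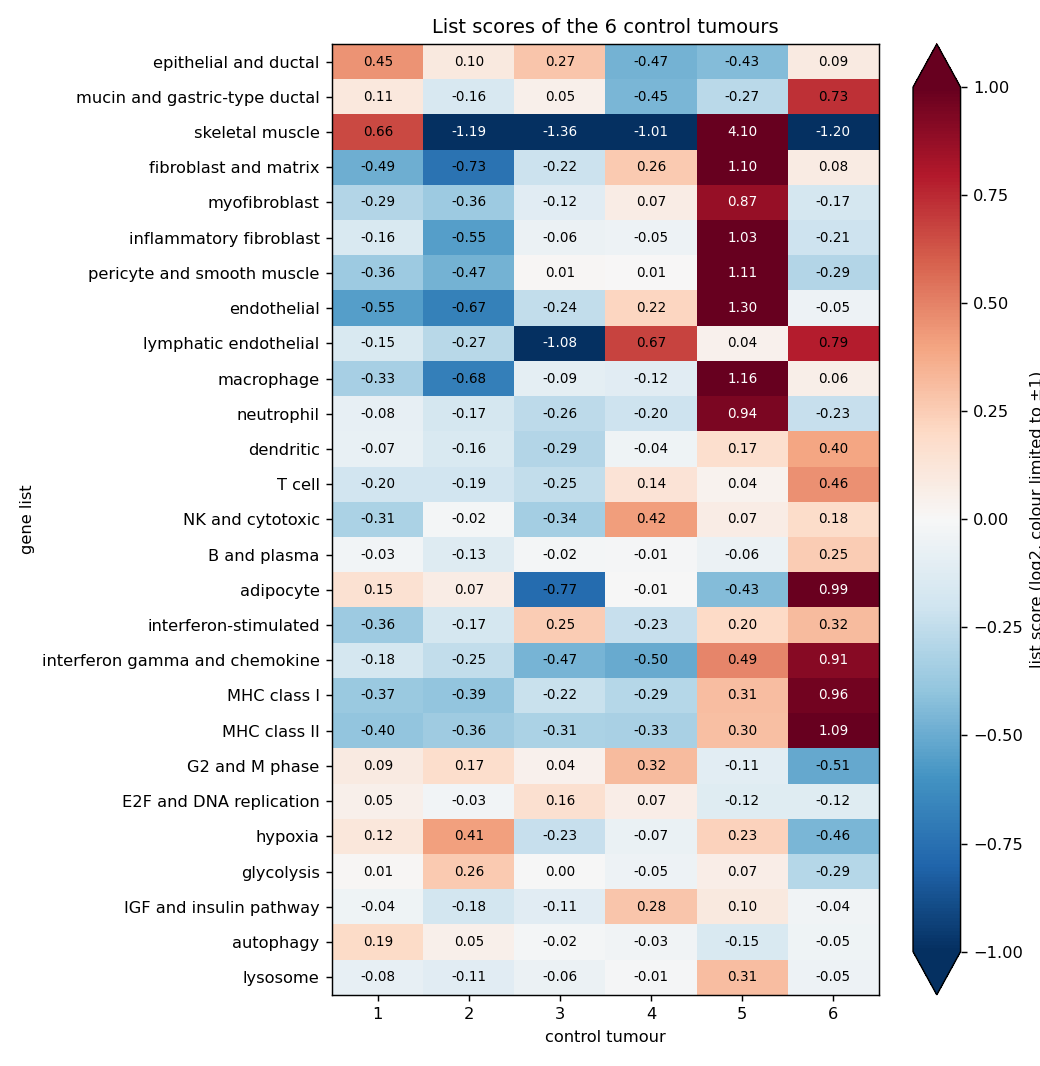
List scores (log2, average over the members of a tumour's distance from the 6-tumour mean) of 27 gene lists (rows) in the 6 control tumours (columns), printed in each cell and coloured from blue (low) to red (high), with the colour limited to ±1. Tumour 5 is red for muscle, fibroblast, endothelial, macrophage and neutrophil lists, and tumour 6 for MHC, interferon gamma and adipocyte lists.

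Tumour 6 was highest in 10 of 11 MHC class I genes, 6 of 8 MHC class II genes and 11 of 15 interferon gamma and chemokine genes, where 18.7% of all genes were highest in it. Scores were -0.40, -0.36, -0.31, -0.33, 0.30 and 1.09 in tumours 1 to 6 for MHC class II genes and -0.37, -0.39, -0.22, -0.29, 0.31 and 0.96 for MHC class I genes, so that tumour 6 was highest and tumour 5 next in both. The interferon gamma and chemokine list scored 0.91 in tumour 6, 0.49 in tumour 5 and between -0.50 and -0.18 in the others. The list of interferon-stimulated genes, most of which answer to type I interferon, ranged less, from -0.36 in tumour 1 to 0.32 in tumour 6, with tumour 3 at 0.25.

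By gene, Cxcl9, a chemokine for T cells that interferon gamma induces, gave 7.47, 8.23, 6.07, 6.33, 8.92 and 10.60 log2 in tumours 1 to 6. The class I heavy chain gene H2-K1 gave 13.40, 13.23, 13.24, 13.24, 14.24 and 14.74, and B2m, its light chain, 16.53, 16.52, 16.72, 16.86, 16.91 and 17.74. Tap1, the peptide transporter, gave 7.67, 7.82, 7.72, 7.72, 8.93 and 10.10, and Psmb9, a subunit of the immunoproteasome, 5.25, 5.61, 5.59, 5.79, 6.73 and 7.59. In H2-K1, Tap1 and Psmb9 tumours 6 and 5 lay above all of tumours 1 to 4. The class II genes H2-Aa and H2-Ab1 reached 12.88 and 12.71 in tumour 6. Lymphocyte and dendritic cell lists were highest in the same tumour with smaller scores: 0.46 for T cells, 0.40 for dendritic cells and 0.25 for B and plasma cells. Over members above background the T cell score was 0.70 and the dendritic cell score 0.33. The B and plasma score was 0.033 over its 5 members above background and 0.087 by the median. In contrast, NK and cytotoxic genes were highest in tumour 4 at 0.42, a score that was -0.10 over the 3 members above background. Of the T cell list 6 of 14 genes were highest in tumour 6, where 18.7% of all genes were. Cd8a reached 6.89 there and lay between 4.63 and 4.95 in the others, and Cd3e reached 6.83 against at most 5.81. Many markers of these cells were dim: Cd79a reached 4.65 and Ms4a1 5.18 in tumour 6, and both were below background in the other 5. The part of these cells in the result was not tested.

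The promoters of Gbp2, an interferon-induced GTPase of host defence with 7.85, 7.92, 7.13, 7.27, 9.17 and 9.70 log2 in tumours 1 to 6, and of B2m are shown because both genes were highest in tumour 6. Capitals mark the core of an interferon-stimulated response element, GAAANNGAAA, on either strand.
Gbp2 (chr3:142620413-142620712, plus strand): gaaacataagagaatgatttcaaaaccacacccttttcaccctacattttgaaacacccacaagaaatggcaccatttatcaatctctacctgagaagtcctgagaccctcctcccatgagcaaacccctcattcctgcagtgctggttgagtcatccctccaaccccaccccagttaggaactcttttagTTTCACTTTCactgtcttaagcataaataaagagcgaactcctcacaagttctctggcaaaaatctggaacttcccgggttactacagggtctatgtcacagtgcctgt
B2m (chr2:122147437-122147736, plus strand): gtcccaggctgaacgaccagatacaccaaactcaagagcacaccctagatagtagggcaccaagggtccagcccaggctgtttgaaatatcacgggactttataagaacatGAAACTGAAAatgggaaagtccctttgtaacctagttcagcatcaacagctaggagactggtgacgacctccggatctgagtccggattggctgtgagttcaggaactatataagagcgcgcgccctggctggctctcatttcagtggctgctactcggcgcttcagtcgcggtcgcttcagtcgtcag
Of the interferon gamma and MHC class I lists, 18 genes had a promoter at hand and 7 held this core, where 3.44% of all promoters did. Here too the count is of genes with a match in any promoter and the share is of single promoters. These windows, too, describe letters and not binding.

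Tumour 6 was lowest in most genes of G2 and M phase, in 19 of 23, where 18.0% of all genes were lowest in it. The score of G2 and M phase genes was 0.086, 0.17, 0.041, 0.32, -0.11 and -0.51 in tumours 1 to 6. Mki67, the marker of cycling cells, gave 15.18, 15.25, 15.25, 15.51, 14.96 and 14.41 log2, and the mitotic kinase gene Aurkb 11.41, 10.98, 11.35, 11.25, 10.57 and 9.77. Both genes were lowest in tumour 6. The list of E2F targets and replication genes ranged less, from -0.125 in tumour 5 and -0.124 in tumour 6 to 0.16 in tumour 3, and Pcna, the replication clamp, stood at 15.21 ± 0.13. Tumour 6 was also lowest for hypoxia genes, at -0.46, with tumour 2 highest at 0.41.

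Mucus genes of stomach type varied strongly, with a list score of 0.11, -0.16, 0.047, -0.45, -0.27 and 0.73 in tumours 1 to 6. Tff1, a trefoil peptide of gastric mucus, gave 3.56, 4.82, 6.20, 4.87, 7.03 and 8.57 log2 in tumours 1 to 6 and Tff2, its partner in deeper glands, 10.29, 6.58, 8.61, 5.91, 7.01 and 9.24. Tumours 1, 3 and 6 were highest for Tff2, and tumours 6 and 5 for Tff1, so the related genes did not follow the same order. The gastric mucin gene Muc5ac was above background only in tumour 6, at 6.12, where the others lay between 2.78 and 3.80.

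Another pattern split tumours 3 and 5 from the other 4. The major urinary protein genes Mup2, Mup9, Mup19 and Mup22 encode secreted lipocalins that carry pheromones and are known mainly from liver. Mup2 gave 13.64, 10.76, 7.16, 13.11, 7.27 and 13.16 log2 in tumours 1 to 6 and Mup19 14.21, 11.71, 7.98, 13.39, 8.19 and 13.78. Mup9 and Mup22 reached 13.05 and 13.63 in tumour 1 and 7.24 and 7.56 in tumour 3. The Mup genes are near-identical copies, so their probe sets may read each other's transcripts and count as 1 pattern rather than 4. Alb and Apoa1, main secreted products of liver, stood at 4.87 ± 0.53 and 2.95 ± 0.39 beside them. Other genes of the hepatocyte list were bright, with Trf at 14.43 ± 0.42, Hp at 13.13 ± 1.29 and Ttr at 10.13 ± 0.92. Tumours 3 and 5 were the lowest pair in 2 of its 18 measured genes, Cyp2e1 and Serpina1a. Cyp2e1 gave 5.26, 4.41, 3.29, 5.22, 3.03 and 6.79 in tumours 1 to 6. The share of all genes with this lowest pair was not computed.

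Adiponectin and a lymphatic chemokine had the same low pair. Adipoq, the hormone adiponectin of fat cells, gave 9.59, 9.13, 6.22, 8.58, 6.20 and 9.48 log2 in tumours 1 to 6. Ccl21a, the chemokine of lymphatic vessels and lymph nodes that draws dendritic cells, gave 9.31, 8.59, 5.58, 9.63, 7.07 and 9.84, and its copies Ccl21b and Ccl21c, which cannot be told apart by sequence with ease, both had 10.07, 9.01, 4.70, 9.85, 6.92 and 10.49. The adipocyte list scored 0.99 in tumour 6, -0.77 in tumour 3 and -0.43 in tumour 5, and the lymphatic endothelial list 0.79, -1.08 and 0.043 there. Tumours 3 and 5 were the lowest pair in 4 of 15 measured adipocyte genes, a count whose share over all genes was not computed. Tumour 3 was lowest in 7 of the 15, where 12.2% of all genes were lowest in it. For tumour 5 it was 5 of 15, near the share of all genes, 25.6%. Of the 15 genes 9 were highest in tumour 6, where 18.7% of all genes were. Fabp4, a fatty acid carrier of fat cells, macrophages and capillaries, had 12.73, 12.64, 11.06, 13.15, 13.69 and 14.20, and Lpl, the lipase of capillaries, 8.96, 9.05, 8.24, 8.53, 9.18 and 9.97. Retn, the hormone resistin, was highest in tumour 6 at 7.98, and near background at 3.28 and 3.35 in tumours 3 and 5.

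Single genes marked other tumours. Retnla, a secreted protein of macrophages under interleukin 4, gave 7.11, 5.96, 11.73, 5.33, 5.47 and 9.58 log2 in tumours 1 to 6, with tumours 3 and 6 on top. Chil4, a chitinase-like protein of the same response, gave 10.16, 8.90, 11.37, 9.13, 8.30 and 6.18, highest in tumour 3 and lowest in tumour 6. Hhip, a decoy receptor and target of hedgehog signalling, gave 9.07, 9.08, 8.56, 11.37, 5.83 and 9.38. Slc14a1, a urea transporter singled out after its values were seen, gave 8.53, 8.74, 8.95, 11.95, 7.23 and 8.10. In Hhip and Slc14a1 tumour 4 was highest and tumour 5 lowest.

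Core programmes of growth and stress had no such genes. All 22 respiratory chain genes, 16 endoplasmic reticulum chaperone genes, 13 heat shock and proteasome genes and 15 cholesterol synthesis genes measured lay above background, and 0 of them had an SD of at least 1. As 1.34% of all genes and fewer of the bright ones reached this SD, the count is near the general share. Hspa5 (BiP), the main chaperone of the endoplasmic reticulum, stood at 17.14 ± 0.18 log2 and the cytochrome oxidase gene Cox7c at 16.72 ± 0.11. Immediate-early genes, which rise within minutes of handling or signals, had scores of 0.24, 0.095, -0.25, -0.18, 0.42 and -0.32 in tumours 1 to 6, highest in tumour 5. Egr2, a zinc finger factor induced by growth factors, gave 8.67, 7.70, 8.40, 8.84, 10.10 and 7.92, with tumour 5 highest. Fos, a subunit of the AP-1 factor, gave 8.15, 8.56, 7.15, 6.80, 8.35 and 8.01, with tumours 3 and 4 lowest.

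Defence proteins of epithelium and blood varied one by one. Pigr, the receptor that carries antibodies through epithelium, gave 5.70, 3.76, 3.87, 2.65, 2.26 and 6.28 log2 in tumours 1 to 6 and passed background only in tumours 6 and 1. Hp, the hemoglobin scavenger haptoglobin, gave 13.76, 13.35, 10.63, 13.23, 13.46 and 14.35, with tumour 3 low alone. The genes Pf4 and Ppbp, chemokines released by platelets, reached 12.49 and 8.96 in tumour 5 and at most 9.78 and 5.87 in the others. The platelet genes Itga2b and Gp9 stood at 8.19 and 6.30 in tumour 5, and at most 8.35 and 6.22 elsewhere. Prrx1, a factor of mesenchyme, gave 9.76, 9.58, 10.78, 10.82, 12.43 and 11.01, with tumour 5 on top.

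**Figure D5:**
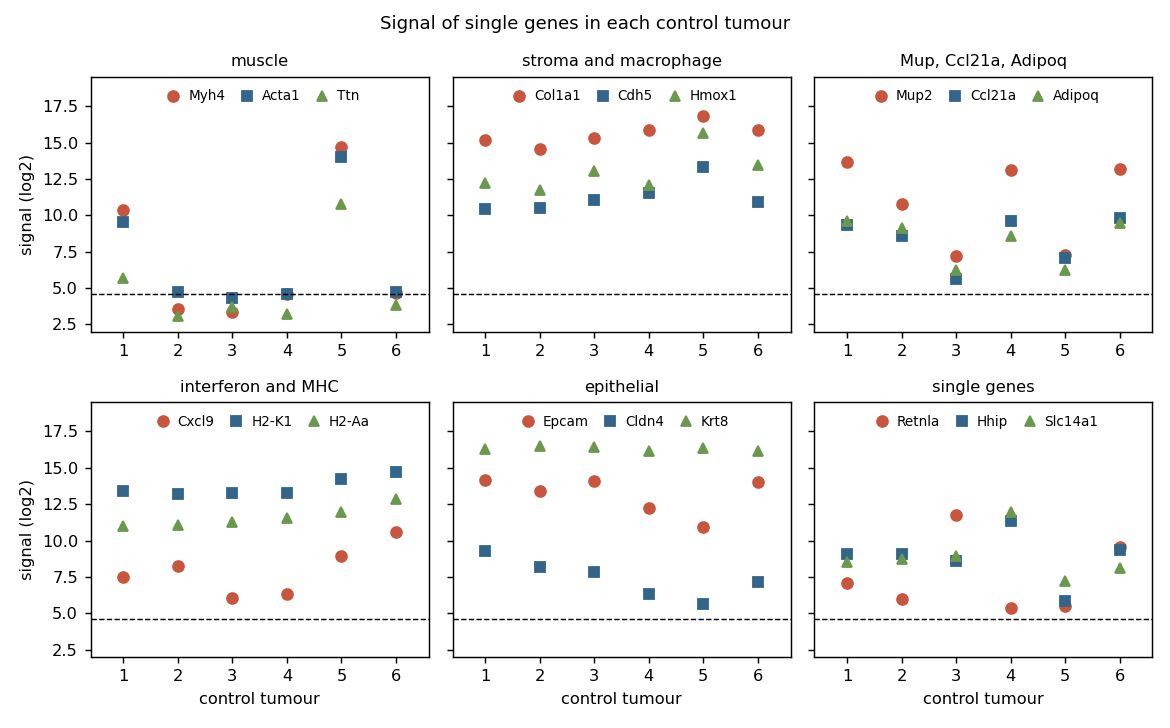
Log2 signal (y axis) of 18 genes in control tumours 1 to 6 (x axis), 3 genes per panel, with the background threshold as a dashed line. Muscle genes stand out in tumours 5 and 1, Mup2, Ccl21a and Adipoq are low in tumours 3 and 5, interferon and MHC genes are highest in tumour 6, and Krt8 is level throughout.

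The targets of the study's agents were read in every control tumour. The receptor genes Igf1r and Insr, whose products BMS754807 inhibits, gave 11.89, 11.81, 11.33, 11.74, 11.65 and 11.52 log2 and 13.23, 13.36, 13.33, 13.51, 13.45 and 13.11 log2 in tumours 1 to 6, with SDs of 0.21 and 0.15. Their ligand gene Igf1 was more variable, with 11.06, 10.84, 11.57, 13.12, 12.38 and 12.69, highest in tumours 4, 6 and 5. Igf2, the other ligand, was close to background, with 5.10, 4.66, 4.45, 6.32, 5.65 and 5.36. The substrate gene Irs2 had 9.21, 10.44 and 10.58 as lowest, median and highest value, with tumour 6 lowest. Of 20 measured genes of the pathway all lay above background, where 64.6% of all genes did. Binding proteins that hold IGFs in the matrix were bright, with Igfbp7 at 16.92 ± 0.16, Igfbp5 at 15.42 ± 0.48 and Igfbp3 at 14.24 ± 0.58.

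Autophagy and lysosome genes, on whose pathway hydroxychloroquine acts, were all above background, 18 of 18 and 17 of 17, where 64.6% of all genes were. The measured genes of the respiratory chain, chaperone and cholesterol synthesis lists were all above it too, so this is not particular to these pathways. The autophagosome gene Map1lc3b stood at 14.08 ± 0.17 log2 and the cargo receptor gene Sqstm1 at 13.29 ± 0.31. The kinase gene Ulk1, which starts autophagosome formation, was the most variable of the list, with 9.51, 9.16, 8.96, 8.93, 7.77 and 8.51 in tumours 1 to 6 and tumour 5 lowest. Scores ranged from -0.15 in tumour 5 to 0.19 in tumour 1 for autophagy and from -0.11 in tumour 2 to 0.31 in tumour 5 for the lysosome list, which shares Ctsb with the macrophage list. Transcript signal says nothing of receptor phosphorylation or of the flux through autophagy.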

How the data were processed

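The 6 control arrays were read from the authors' deposited table of 22206 probe sets and 24 arrays, which had 0 missing values. The deposited values were read as log2 signal, a scale that rests on their range, 1.53 to 18.94 in these arrays, since no label states it. Per the submitters' processing notes the software was Transcriptome Analysis Console 4.0, and background correction, normalization, summarization and genome build are not given in the sources used here. Per the labels' protocols, 250 ng of total RNA was labelled per array. The platform annotation gave 1 symbol to 19572 probe sets and none to 2634. For a gene with several probe sets the brightest by control mean stood for it, which dropped 67 and left 19505 genes.

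Genes were ranked by mean and by SD (Python 3.11.15, pandas 2.3.3). The 50 gene lists held 855 distinct genes, of which 756 were measured and the rest not analysed here, and 36 stood in more than 1 list. Members, lists and limits were chosen with earlier results of these data known. Genes were named from the 30 brightest, the 30 most variable, the 10 steadiest and the 5 dimmest, from the brightest, dimmest and most variable members of the lists and from the list a sentence describes, with predicted genes left out. All members of the PDAC, Y-linked and insulin-like growth factor (IGF) lists, actins and a few markers could also be named. Alternatives changed the statistic, filter, threshold and scaling or left out 1 tumour. The ranking by SD was tested on simulated data. Arrays have no count depth, and their number limits the precision.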

Additional observations from a re-analysis of the deposited data

Results flagged for a closer look

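Dixon's test at the 95% level was applied to 112 genes given or drawn here and to the scores of all 50 lists. Not all of these scores are shown above. In 15 genes and 8 scores 1 tumour lay farther from the other 5 than the test allows. Chance alone marks about 1 group in 20 in this test, but many of the genes were named because they varied most between these 6 tumours or after their values were seen, so that rate does not apply to them and the values are a description. The genes of a list are not independent either. Tumour 5 accounted for 16 of the 23, tumour 6 for 5 and other tumours for 2.

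In tumour 5 the high values were those of Acta2 (15.37 log2), Tagln (13.46), Ccl2 (10.83), Arg1 (13.13), S100a8 (9.57), Serpinb2 (12.59), Apob (12.43) and Ttn (10.80), and the low ones those of the Y-linked gene Uty (12.81) and of Igfbp5 (14.48). Its list scores stood apart for skeletal muscle (4.10), pericyte and smooth muscle (1.11), inflammatory fibroblast (1.03), neutrophil (0.94), myofibroblast (0.87) and lysosome genes (0.31). In tumour 6 they were the high values of B2m (17.74) and Muc5ac (6.12), the low value of Bsg (17.86), and the scores of the intestinal epithelium (0.57) and B and plasma lists (0.25). The B and plasma score was 0.033 over members above background. Slc14a1 was high in tumour 4 (11.95) and Clu in tumour 2 (18.80), where the whole range of Clu was 0.08 log2.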

How the results depend on the processing

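The abundant and near-background genes depended little on the processing. Of the 100 brightest genes 97 to 100 were retained when 1 tumour was left out and 99 or more under the other alternatives tried, with 24 to 26 ribosomal protein genes among them. The count of near-background genes lay between 6853 and 6975 when 1 tumour was left out and between 5746 and 7953 under other thresholds, counting rules, receptor sets and scaling. The variable genes depended more on the choices. With 1 tumour left out, 50 to 91 of the first 100 were retained, 6 to 18 of the 100 were skeletal muscle genes, 56 to 71 were highest in tumour 5 and 129 to 348 genes had an SD of at least 1, where 50, 6 and 129 were the values without tumour 5 and 348 that without tumour 3. With the median absolute deviation in place of the SD, which by construction ignores 1 or 2 extreme tumours, 38 of the first 100 were retained, 3 were muscle genes and 34 were highest in tumour 5. With genes above background in every tumour, which removes genes dark in some tumours, 62 were retained and 4 were muscle genes. Ranking by range or by SD above its trend with signal, and both scalings, moved none of these counts by over 1.5 times. The median correlation of the 15 pairs was 0.9905 over all genes and 0.9829 over genes above background. For each list only the tumour with the largest absolute score was followed, by median, by members above background and by 2 scalings. Of these scores 185 moved by less than 1 SD between the tumours, 14 moved farther and 1 changed sign. That 1 was the NK and cytotoxic score of tumour 4, which was -0.10 over the 3 members above background in place of 0.42. The scores of the other tumours were not checked in this way. SDs of list scores without tumour 5 were computed after the data were seen. No paired analysis was possible because the results come from 1 group, with no groups to compare.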

Other observations

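Some imprinted genes were picked because their values were seen to be high in tumours 4 and 5, so what follows describes these genes and not imprinted genes as a group. Mest reached 12.82 log2 in tumour 5 and 12.64 in tumour 4, with at most 10.72 in the others, and the probe set named Mir675 gave 7.20, 6.74, 8.33, 10.63, 10.04 and 7.01. By RefSeq coordinates (GRCm38.p6) the Mir675 hairpin, at chr7:142577064-142577147, lies within H19, at chr7:142575530-142578146. Plagl1, a zinc finger factor, gave 4.01, 3.73, 4.83, 6.50, 5.64 and 3.97. Slc38a4, an amino acid transporter, gave 4.10, 4.12, 3.93, 5.92, 6.54 and 3.35, and Grb10, an adaptor that restrains insulin receptor signalling, 7.66, 6.74, 7.99, 8.96, 9.26 and 7.83. Tumours 4 and 5 were the highest pair in these 5. In Peg3 and Dlk1, also imprinted, they were not: Peg3 gave 11.21, 9.67, 10.49, 10.80, 10.24 and 9.80 and Dlk1 4.47, 5.31, 6.79, 5.85, 5.50 and 3.85. These tumours also had the highest fibroblast and matrix scores, 1.10 in tumour 5 and 0.26 in tumour 4, and their part in the pattern was not tested.

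Probe sets with no symbol in the annotation were not ranked above. Of the 2634 of them 1531 had a mean above the background threshold, the brightest at 18.90 log2, and 52 had an SD of at least 1.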
